A study of Rattus norvegicus with 8 samples.

Results

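Connexins are the membrane proteins that build gap junctions (named Cx with a molecular mass), and 8 connexin genes of neurons, glia and vessels were examined in rat spinal motoneurons: Gjd2, Gjc1, Gja1, Gjb6, Gjb2, Gjb1, Gja4 and Gja5. The members were all probe sets whose single annotated symbol was one of these genes, which gave 11 of the 31042 probe sets on the array. The samples were laser-captured motoneurons of the lumbar cord of Wistar albino rats at postnatal day 1 (P1), during active myelination, and at postnatal day 21 (P21), after it was complete. The rats came from 4 litters, each split between the ages. Each age had 4 biological replicates, 1 array each, and no animal carried a transgene or received a treatment that the labels name. Per the labels' protocols each array took 1500 to 2000 cells, cut from cresyl violet-stained sections of 12 µm, and about 50 ng of RNA came from each pool of 4 rats and was amplified in 2 rounds from the poly(A) end.

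Connexins assemble in rings of subunits, and a ring in one cell docks with a ring in its neighbour to form a channel through which ions and small metabolites pass. Between neurons such channels act as electrical synapses. Neonatal rat motoneurons are coupled in this way, and the coupling is lost during the first postnatal weeks. Astrocytes are coupled into networks by gap junctions for most of life, oligodendrocytes are joined to astrocytes and to their own myelin layers by them, and endothelial and vascular muscle cells use them to conduct signals along vessels.

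Markers of motoneurons and of other cells were both measured in the captured pools, and the shares given after each list compare with 22.0% of all genes higher and 17.4% lower. Of 6 motoneuron markers measured, the summed intensity was 26774 to 29718 at P1 and 28300 to 33356 at P21, with Chat higher (change 1.32) and Isl1 lower (-1.67) at P21. Summed markers of oligodendrocytes (9 of 11 higher, 0 lower) went from between 7466 and 9279 to between 35841 and 38557, with Mobp near 0 at P1 (-2.65 to 23.5). Those of astrocytes (6 of 11 higher, 1 lower) went from 24614 to 27138 up to 29106 to 34659. Endothelial markers (4 of 10 higher, 0 lower) summed to 4427 to 6904 and 5682 to 10931, and mural cell markers (1 of 6 higher, 0 lower) to 3197 to 5245 and 4435 to 5741. Meningeal and fibroblast markers (5 of 6 higher, 0 lower) summed to 5698 to 10301 and 18139 to 26275. Microglial markers had 4 of 6 higher and 0 lower (2131 to 3282, then 3409 to 5171), with Tyrobp changing by 1.27, and Schwann cell markers 2 of 3 higher and 0 lower (1703 to 3016, then 3050 to 6523). Interneuron markers had 4 of 5 lower (11776 to 11942, then 5724 to 7811), Tac1 by -2.94, and Slc32a1 higher by 0.47 (adjusted p = 0.0469, or 0.0890 with the replicate number as a block). The 4 endothelial calls became 2 without P1 replicate 1 or 2, P21 replicate 1 or 2, the filter or with centring, and 1 with quantile normalization or the filter at the 60th percentile. The 4 falls of interneuron markers became 2 without P1 replicate 1, P1 replicate 3, P21 replicate 2 or the filter. The 6 astrocyte markers called higher became 4 without the filter, with centring, or when P1 replicate 3 or P1 replicate 4 was omitted. Omitting any P21 array except replicate 2 also gave 4. The 1 mural call became 2 without P1 replicate 2. With the filter at the 60th percentile, mural calls went from 1 to 0, microglial calls from 4 to 1 and Schwann cell calls from 2 to 1. A level in such a pool cannot be assigned to 1 cell type, and fewer cells of a type and less RNA per cell cannot be told apart.

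All 8 genes had a probe set that passed the filter on dim signals, while 3 probe sets did not pass it, 2 of Gja1 and 1 of Gja5. Of the 8 probe sets tested, 4 were higher at P21 (Gjb6, Gjb1, Gjb2 and Gja1), 2 were lower (Gjc1 and Gjd2) and 2 did not pass (Gja4 and Gja5). Over all probe sets, 20.8% were called higher and 17.4% lower, or 38.3% in either direction. With arrays centred on their medians the split of calls turned, from 3990 higher and 3339 lower to 3399 higher and 4226 lower. The calls of Gjb2 and Gjd2 were lost when most single arrays were left out. The P1 and P21 intensities did not overlap for Gjb6, Gjb1, Gja1 and Gjc1, against 38.0% of all probe sets tested (20.4% higher and 17.7% lower at P21). The median change was 0.38 over the 8 tested connexin probe sets and 0.07 over all probe sets tested. Changes below are P21 minus P1 on the log2 scale, given ± the standard error, and mean intensities are given ± SD over 4 arrays per age.

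**Figure D1:**
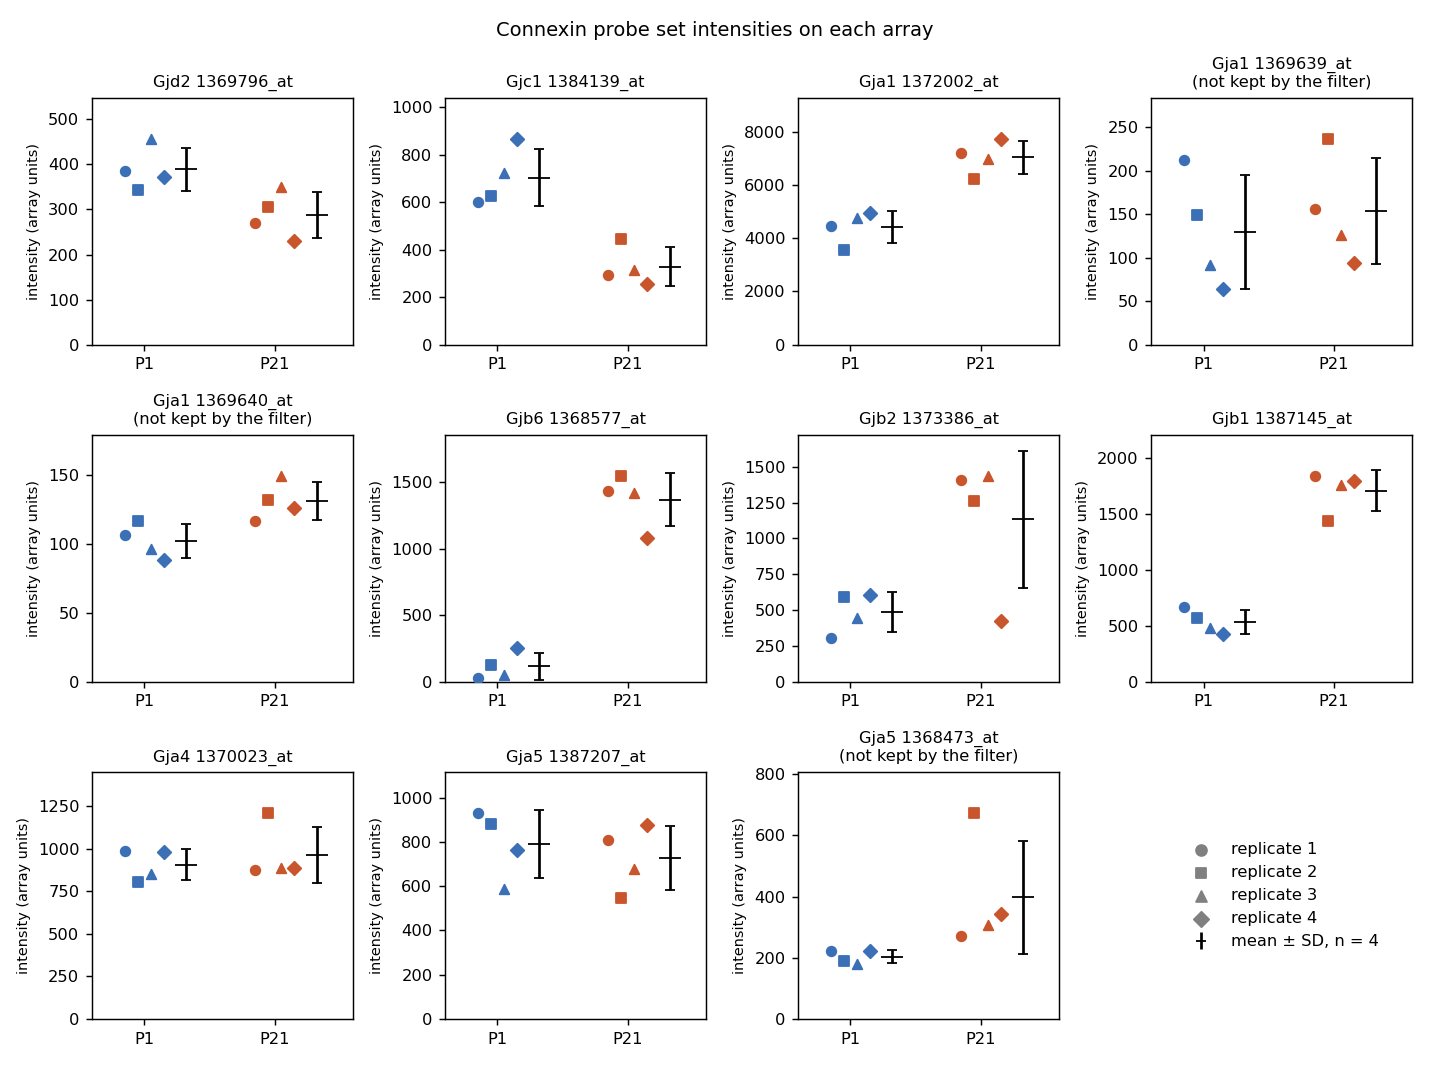
Intensity in array units of each of the 11 connexin probe sets on the 4 P1 (blue) and 4 P21 (orange) arrays, each marker shape being a replicate number and black bars the mean ± SD. Gjb6, Gjb1, Gja1 1372002_at and Gjc1 are separated by age, the fourth P21 array is low for Gjb2, and the second P21 array is high for Gja4 and for Gja5 1368473_at.

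Among the connexins of neurons, the larger fall was that of Gjc1. Gjc1 encodes Cx45, which couples some neurons and is also made by vascular muscle and developing tissue. Probe set 1384139_at read 600, 626, 723 and 867 at P1 and 294, 445, 317 and 255 at P21, in replicates 1 to 4. Every P1 array was above every P21 array. Its mean fell from 704 ± 121 to 328 ± 82.1, a change of -1.08 ± 0.18 or 2.12-fold lower (95% confidence interval 1.61 to 2.78), with an adjusted p of 0.00104. Of its P21 intensities, 3 of 4 were over the level that the filter set on their array. Its highest P21 value was on replicate 2, the array with the highest summed mural cell markers (5741), whereas its highest P1 value was on replicate 4, where those markers summed to 3307. The part of mural cells in the Gjc1 level was not tested.

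Gjd2 encodes Cx36, the principal connexin of electrical synapses between mammalian neurons. Its probe set, 1369796_at, read 385, 343, 456 and 373 at P1 and 269, 306, 349 and 230 at P21. The ages overlapped, since P21 replicate 3 was above P1 replicate 2. The mean went from 389 ± 48.1 to 288 ± 50.7, a change of -0.42 ± 0.14 or 1.34-fold lower (interval 1.08 to 1.66), with an adjusted p of 0.0384. Within same-numbered arrays Gjd2 was lower at P21 in each of the 4 pairs, by -0.49, -0.16, -0.37 and -0.66. The signal was dim, with 4 of 4 P1 but 2 of 4 P21 intensities over the filter level. The Gjd2 change depended little on the amount added before the logarithm, at -0.44 with 4 units and -0.37 with 64 units. The adjusted p was 0.0740 without the filter. It lay between 0.0565 and 0.104 when P1 replicate 1, 3 or 4 or P21 replicate 1, 2 or 4 was left out. It was 0.0167 with the replicate number as a block, 0.0300 with arrays centred on their medians and 0.0294 with quantile normalization. Gjd2 passed under 7 of the 14 alternatives in which it was tested. At each age Gjd2 read highest on replicate 3, and so did the summed motoneuron markers (29718 at P1 and 33356 at P21). The lowest values did not coincide. Gjd2 was lowest on P1 replicate 2 and P21 replicate 4, and the motoneuron markers summed lowest on replicate 1 at each age (26774 and 28300). Most of these sums came from Nefh (means of 9181 and 9201) and Prph (7947 and 8321), and the part of motoneuron RNA in the Gjd2 change was not tested.

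The genes most like each of these over the 8 arrays were found among 10951 genes by Pearson correlation. For Gjd2 they were Calm2 (r = 0.992), a calmodulin gene, Ywhaz (r = 0.984), a 14-3-3 protein, and Tpgs1 (r = 0.975), a subunit of a tubulin polyglutamylase. Calm2 read 8692 at P1 and 8270 at P21 on average, a change of -0.07 that did not pass, so a close likeness in pattern went with changes of unlike size. For Gjc1 they were Smtnl2 (r = 0.985), Clcn2 (r = 0.980), a chloride channel, and Mfap3 (r = 0.975), with changes of -1.30, -0.49 and -1.83. Such values describe the 8 arrays, which fall into 2 ages, and carry no test.

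Among the astrocytic connexins the largest rise was that of Gjb6, which encodes Cx30, a connexin that rodent astrocytes acquire after birth. Gjb6 probe set 1368577_at read 30.5, 129, 47.4 and 255 at P1 and 1432, 1543, 1417 and 1078 at P21. The lowest P21 array was thus well above the highest P1 array, and 1 of 4 P1 intensities was over the filter level. The mean rose from 116 ± 103 to 1367 ± 201, a change of 3.72 ± 0.47 or 13.2-fold (interval 6.32 to 27.6), with an adjusted p of 2.40e-04. Because most P1 values were dim, the size of this fold depends on the floor of 16 units added before the logarithm. The change was 3.15 with a floor of 64 and passed under each alternative. Of all probe sets tested, 0.157% had a larger rise. P1 replicate 4 held the highest P1 value and P21 replicate 4 the lowest P21 value, so the same-numbered difference was 2.01 for number 4 against 3.42 to 4.96 for the others.

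Gja1 encodes Cx43, the main connexin of astrocytes, present from before birth and also made by meningeal and vascular cells. Its bright probe set, 1372002_at, read 4440, 3566, 4758 and 4937 at P1 and 7200, 6221, 6982 and 7725 at P21. The ages did not overlap. The mean rose from 4425 ± 609 to 7032 ± 624, a change of 0.67 ± 0.12 or 1.59-fold (interval 1.32 to 1.93), with an adjusted p of 0.00210. The rise within same-numbered arrays was even, from 0.55 to 0.80. At each age Gja1 was lowest on replicate 2, which also had the lowest summed astrocyte markers, 24614 at P1 and 29106 at P21. The highest values did not coincide. Gja1 was highest on replicate 4 at each age, and the astrocyte markers summed highest on replicate 3 (27138 at P1 and 34659 at P21). The summed markers were higher at P21, and 6 of their 11 genes were called higher, or 4 without the filter or with centring. The part of these markers in the Gja1 change was not tested.

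The other Gja1 probe sets were dim and all 8 intensities of each lay under the filter level. Probe set 1369639_at read 64.4 to 213 at P1 and 93.5 to 236 at P21, and 1369640_at read 88.5 to 117 and 116 to 149. In a fit without the filter their changes were 0.27 ± 0.36 (adjusted p = 0.654) and 0.32 ± 0.12 (adjusted p = 0.0887). Neither passed, and their intervals ran from -0.54 to 1.08 and from 0.05 to 0.59, so they overlap that of the bright probe set.

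The rise of Gja1 was small beside that of Gjb6, and the 2 intervals did not overlap (0.40 to 0.95 and 2.66 to 4.79 on the log2 scale). Astrocyte markers did not move as one. Ntsr2, a neurotensin receptor of astrocytes, had a change of 1.78 ± 0.13, and the water channel gene Aqp4 one of 1.23 ± 0.15. The glutamate transporter gene Slc1a3 fell (-1.35 ± 0.18), while the change of Aldoc was -0.14 and did not pass. The genes most like Gjb6 were Enpep (r = 0.985), an aminopeptidase of pericytes, Mt2A (r = 0.982), a metallothionein, and Nfkb1 (r = 0.979). Enpep read 7.43 to 58.7 at P1 and 299.6 to 538 at P21. Those most like Gja1 were Armh4 (r = 0.989), Ndrg3 (r = 0.989) and Myh9 (r = 0.989), a non-muscle myosin heavy chain, with changes of 0.96, 0.50 and 1.18.

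**Figure D2:**
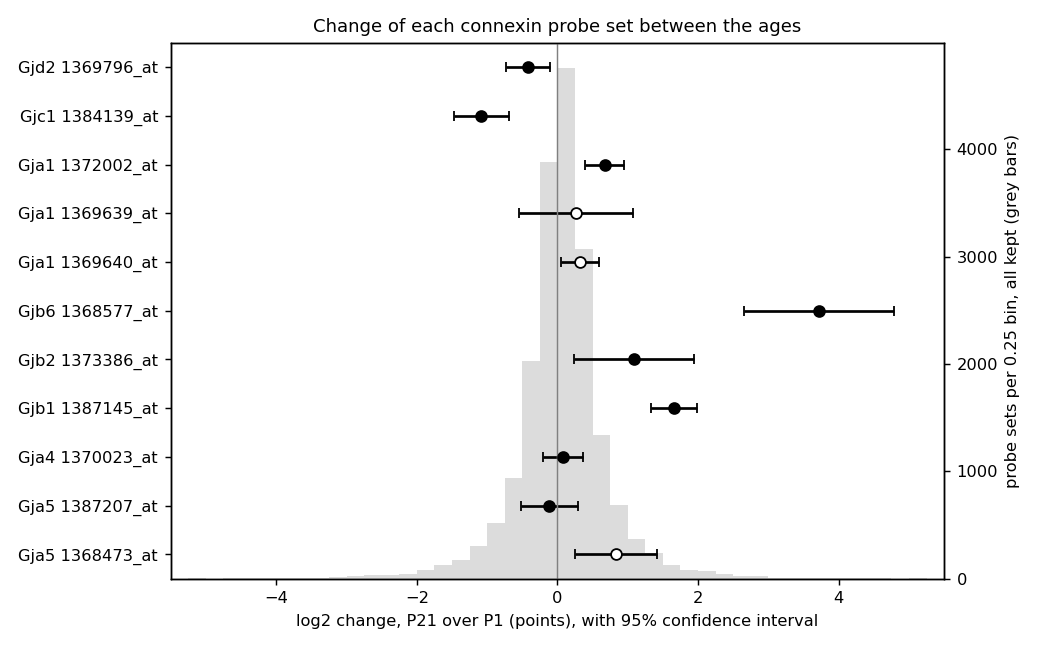
The log2 change of each connexin probe set, P21 over P1, with its 95% confidence interval (points, left axis), over the distribution of the change of all 19155 probe sets tested (grey bars, right axis, drawn between -5.5 and 5.5). Filled points were tested, open points come from the fit without a filter. Gjb6 lies farthest right at 3.72, Gjb1 at 1.66 and Gjc1 farthest left at -1.08.

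Gjb2, the neighbour of Gjb6 on rat chromosome 15, encodes Cx26, which is made by cells of the leptomeninges and by some astrocytes. Probe set 1373386_at read 306, 589, 443 and 608 at P1 and 1408, 1260, 1433.5 and 424 at P21. On 3 of the P21 arrays it was above every P1 array, and on P21 replicate 4 it was below 3 of the 4 P1 arrays. The mean went from 487 ± 141 to 1132 ± 478, a change of 1.09 ± 0.38 or 2.13-fold (interval 1.18 to 3.86), with an adjusted p of 0.0468. The call was lost with the replicate number as a block (adjusted p = 0.0680), without the filter (0.0827), with quantile normalization (0.0781) and with arrays centred on their medians (0.0645). It was also lost without any 1 of P1 replicates 1 to 4 or P21 replicates 1 to 3 (0.0531 to 0.116). Without P21 replicate 4 the change was 1.51 ± 0.22 and the adjusted p was 0.00101.

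The genes most like Gjb2 over the 8 arrays, a choice in which its low reading on P21 replicate 4 took part, were Vtn (r = 0.955), the gene of the adhesive plasma protein vitronectin, Slc6a20a (r = 0.951), an amino acid transporter, and C13h1orf115 (r = 0.944). Vtn read 669, 840, 1221 and 241 at P21, and Slc6a20a read 1204, 1160, 1582 and 303. Both had their lowest P21 value on replicate 4, which follows from how they were chosen. Ptgds, the prostaglandin D synthase of leptomeninges and oligodendrocytes and 1 of the meningeal markers, read 4596, 5258, 7288 and 821 at P21 and up to 1055 at P1.

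The collagen genes of fibroblasts, picked out after their values were seen, differed from each other on that array. Col1a1 read 8626 on P21 replicate 4 and between 2336 and 4154 on the other P21 arrays, and Col1a2 read 8464 there against 1868 to 3304. Col3a1 was lowest there instead, reading 3098 against 3327.5 to 4532. The sum of the 6 meningeal and fibroblast markers was therefore highest on replicate 4 (26275, against 18139 to 22052). Among the P21 arrays Gjb2 was lowest on replicate 4. Of the other markers in the sum, Lum was also highest on replicate 4 (2398), and Dcn was highest on replicate 2 (2985). Slc6a13, a listed marker that did not pass the filter and is not in the sum, was lowest on replicate 4 (116 against 276 to 306). The part of meningeal cells in the Gjb2 change was not tested.

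**Figure D3:**
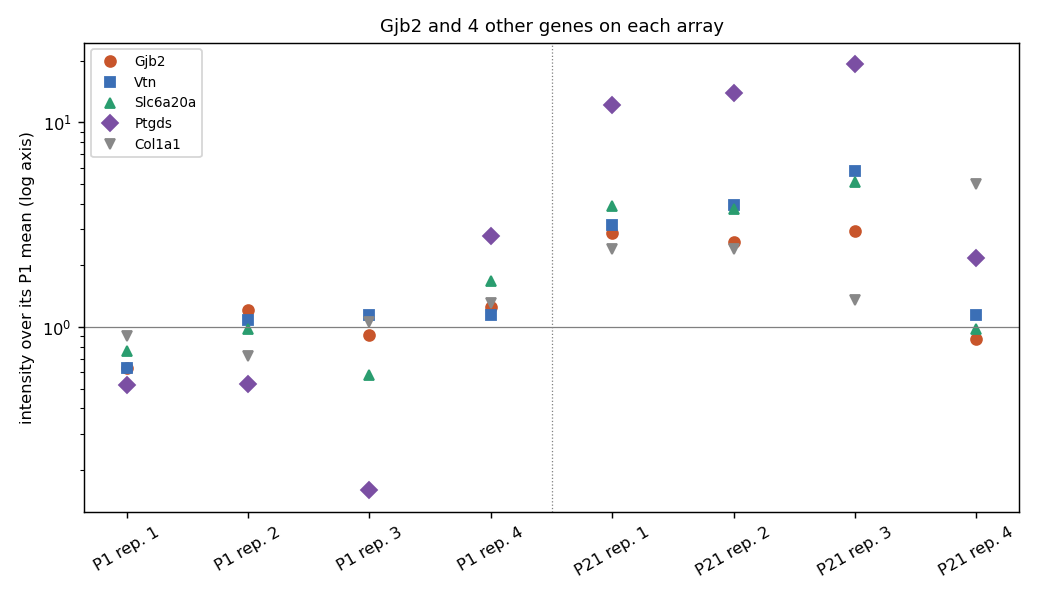
Intensity of Gjb2, Vtn, Slc6a20a, Ptgds and Col1a1 on each array, divided by the gene's own P1 mean (log axis), with P1 arrays left and P21 arrays right of the dotted line. On P21 replicate 4, Gjb2 sits at 0.872 of its P1 mean and Ptgds at 2.17, below the other P21 arrays, while Col1a1 sits at 5.01, above them.

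The bases before the annotated starts of 3 connexin genes that rose and of 1 that fell are shown because Gjb6 and Gjb2 are neighbours that both read higher at P21 while Gjd2 read lower. They are the 250 bases upstream of the start, from RefSeq on GRCr8, read 5′ to 3′ on the strand of the gene. Capitals mark TTAAAA, an AT-rich box, on either strand in each, and the AP-1 site, with letters given below, in Gja1.
Gjb6: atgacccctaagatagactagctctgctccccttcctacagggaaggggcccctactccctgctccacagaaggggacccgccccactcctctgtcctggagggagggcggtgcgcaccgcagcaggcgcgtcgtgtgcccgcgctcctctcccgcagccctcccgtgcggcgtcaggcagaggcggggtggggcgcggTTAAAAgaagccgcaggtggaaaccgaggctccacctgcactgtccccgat
Gjb2: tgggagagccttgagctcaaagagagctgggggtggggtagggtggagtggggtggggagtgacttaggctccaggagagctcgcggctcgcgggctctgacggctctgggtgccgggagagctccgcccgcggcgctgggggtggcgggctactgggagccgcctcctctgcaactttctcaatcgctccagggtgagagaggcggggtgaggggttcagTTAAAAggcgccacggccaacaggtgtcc
Gja1: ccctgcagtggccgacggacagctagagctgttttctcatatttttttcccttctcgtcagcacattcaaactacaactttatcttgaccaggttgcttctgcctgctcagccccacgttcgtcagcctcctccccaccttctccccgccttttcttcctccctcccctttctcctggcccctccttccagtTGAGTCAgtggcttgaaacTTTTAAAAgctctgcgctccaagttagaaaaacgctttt
Gjd2: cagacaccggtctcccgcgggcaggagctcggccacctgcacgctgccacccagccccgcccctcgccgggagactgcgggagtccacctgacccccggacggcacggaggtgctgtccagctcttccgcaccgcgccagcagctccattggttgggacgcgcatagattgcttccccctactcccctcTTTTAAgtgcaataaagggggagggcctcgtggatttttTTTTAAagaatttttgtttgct
These windows are chr15:35410139-35410388 (minus strand), chr15:35381954-35382203 (minus), chr20:36302314-36302563 (plus) and chr3:121229368-121229617 (minus), in that order.

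Promoter windows were found for 7 of the 8 genes, all but Gjc1, and Gjb6 had 2 annotated starts, of which the first is shown. TTAAAA or its complement TTTTAA ended 15 to 50 bases before the start in 4 of the 7 genes, at 24 bases in Gjb2, 46 in Gjb6, 32 and 34 (overlapping matches) in Gja1 and 17 in Gjd2, and in 2.98% of all 33469 windows. It was thus present both in genes that rose and in one that fell. Anywhere in the 250 bases it occurred in 6 of the 7 genes and in 19% of all windows. The AP-1 site TGANTCA occurred in 1 of the 7 genes, 52 bases before the start of Gja1, and in 6.34% of windows. The GC box GGGCGG was found in 5 of the 7 and in 30.5% of windows, and the E-box CANNTG in 6 of the 7 and in 65.5%. Both strands were searched, the motifs were chosen with these sequences in view, and a match describes letters, not binding.

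The connexin of myelinating cells rose. Gjb1 encodes Cx32, which oligodendrocytes and Schwann cells place in uncompacted myelin and whose mutation in humans causes an inherited neuropathy. Gjb1 probe set 1387145_at read 667, 567, 477 and 428 at P1 and 1838, 1435, 1758 and 1794 at P21. Each P21 array was above every P1 array. The mean rose from 535 ± 105 to 1706 ± 184, a change of 1.66 ± 0.15 or 3.15-fold (interval 2.51 to 3.97), with an adjusted p of 2.67e-05. This change was 1.56 to 1.77 when single arrays were left out.

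Gjb1 rose with the oligodendrocyte list, whose median change was 2.09, against 0.05 over all 10961 genes. Mobp of compact central myelin led that list (7.58). Mag, an adhesion protein of the innermost myelin layer picked out after its value was seen, changed by 1.61 ± 0.11, close in size to Gjb1. The list reached down to Ermn (0.16 ± 0.24) and Ugt8 (0.04 ± 0.19), which were not called. Among Schwann cell markers Pmp2, a lipid-binding protein of peripheral myelin, changed by 2.00 ± 0.36. At each age Gjb1 was highest on replicate 1, which also had the highest Schwann cell sums (3016 at P1 and 6523 at P21). The Schwann cell sum was lowest on replicate 4 at each age (1703 and 3050.5), where Gjb1 was lowest at P1 but not at P21. On the P1 arrays Gjb1 was highest and lowest where the oligodendrocyte sum was, on replicates 1 (9279) and 4 (7466). On the P21 arrays it was not: that sum was highest on replicate 3 (38557) and lowest on replicate 4 (35841), and Gjb1 was highest on replicate 1 and lowest on replicate 2. The part of either cell type in the rise was not tested. The genes most like Gjb1 were Chn2 (r = 0.998), a GTPase-activating protein, Mid1ip1 (r = 0.997), a regulator of lipid synthesis, and Thrb (r = 0.995), the thyroid hormone receptor beta. Thrb rose from 478 to 2313 on average, a change of 2.25 ± 0.18.

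The vascular connexins did not pass the test. Gja4 encodes Cx37 and Gja5 Cx40, both of arterial endothelium and both also reported in developing rat motoneurons. Gja4 probe set 1370023_at read 987, 806, 852 and 978.5 at P1 and 875, 1209, 885 and 886 at P21. The ages overlapped, 3 of the P21 arrays read between 875 and 886, and P21 replicate 2 stood above them and above every P1 array. The mean was 906 ± 90.8 at P1 and 964 ± 163 at P21, a change of 0.08 ± 0.13 with a confidence interval of -0.21 to 0.37 (adjusted p = 0.660). Without P21 replicate 2 the change was -0.032 (adjusted p = 0.847).

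The probe sets of Gja5 differed from each other. Probe set 1387207_at read 929.5, 883, 585.5 and 763 at P1 and 808, 547, 679.96 and 875 at P21, a change of -0.12 ± 0.18 with an interval of -0.52 to 0.29 (adjusted p = 0.642). Its ages overlapped, and its lowest value was on P21 replicate 2. Probe set 1368473_at was dim, reading 179 to 223 at P1 with 0 of 4 arrays over the filter level, and 271, 672, 305 and 343 at P21 with 3 of 4 over it. It did not pass the filter. Its ages did not overlap, and in the fit without the filter its change was 0.83 ± 0.26 (adjusted p = 0.0457). Without P21 replicate 2 that change was 0.56 ± 0.13 (adjusted p = 0.0240), and the call was lost without any 1 of P1 replicates 1 to 4 or P21 replicate 3 or 4 (adjusted p = 0.0540 to 0.112), alternatives chosen after the data were seen. Without P21 replicate 2 the change of 1387207_at was 0.0092 (adjusted p = 0.974), so its sign rested on that array. On P21 replicate 2 one probe set was at its highest and the other at its lowest.

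The summed vessel markers were also highest on P21 replicate 2. The endothelial markers summed to 10931 there and to between 5682 and 8809 on the other P21 arrays, and the mural cell markers to 5741 against 4435 to 4590. Vwf, the clotting protein of endothelium, read 1473 there and 240 to 615 on the others, and Tagln, a protein of smooth muscle, read 1886 against 7.53 to 657. Vwf was not called between the ages (adjusted p = 0.104), and Tagln did not pass the filter and is not in the mural sum. Among the P21 arrays, Kdr, Tie1 and Abcc9 of these lists read highest on replicate 1 instead. Among the P1 arrays the mural sum was also highest on replicate 2 (5245, against 3197 to 4318). The endothelial sum (4427) and Gja4 (806) were lowest on that P1 array. Over both ages the endothelial receptor gene Tek changed by 0.83 ± 0.22 and the pericyte gene Rgs5 by 1.02 ± 0.15. The part of vessels in the Gja4 and Gja5 readings of P21 replicate 2 was not tested.

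**Figure D4:**
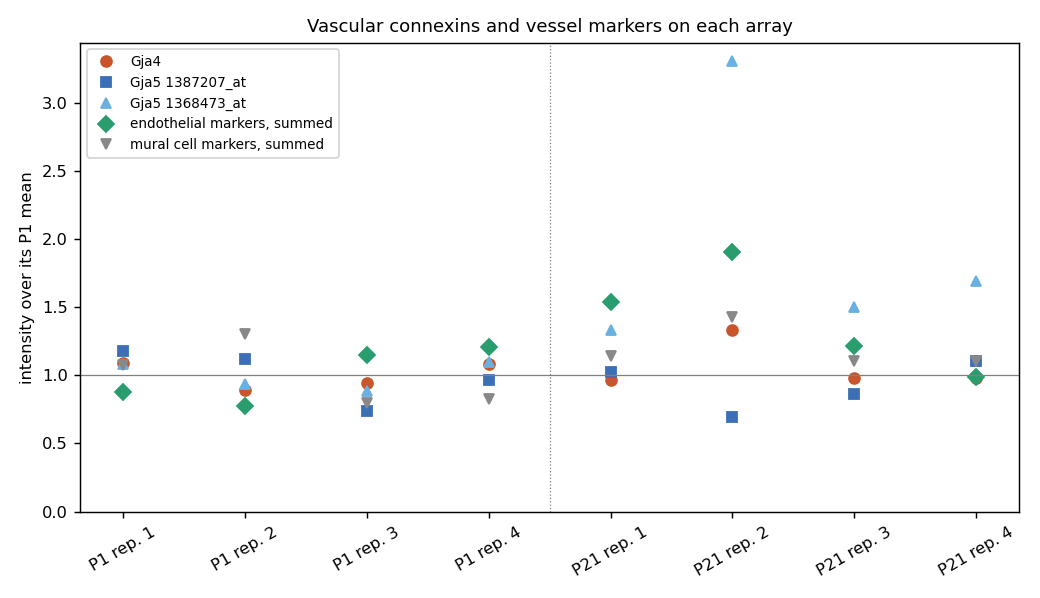
Intensity of the Gja4 probe set, both Gja5 probe sets and the summed endothelial and mural cell markers on each array, divided by its own P1 mean. On P21 replicate 2, Gja5 1368473_at reaches 3.31, the endothelial sum 1.91, the mural sum 1.43 and Gja4 1.33, while Gja5 1387207_at is at 0.692.

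The rest of the gap junction family and its partners were compared from lists. Of 12 further connexin genes, 3 had a probe set (Gja3, Gja6 and Gjb5) and 2 passed the filter, and of the pannexins, which form related channels, Panx1 passed it. None of these 3 genes was called. Gjb5 had a change of -0.59 ± 0.26 (adjusted p = 0.0963, or 0.0486 with the replicate number as a block), Gja6 of 0.36 ± 0.38 (0.489) and Panx1 of -0.15 ± 0.14 (0.417), with Panx1 reading 1102 ± 85.0 and 999.8 ± 191.

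Among scaffolds and regulators of gap junctions 15 genes were measured. Of them 4 rose and 3 fell, and the other 8 missed the threshold. Over all genes 22.0% were higher, 17.4% lower and 39.4% called, so the share called in this list was near that of all genes. The median change was -0.15 in the list and 0.05 over all genes. Prkcd, a protein kinase C, rose from 418 ± 44.8 to 1241 ± 95.8 (change 1.54 ± 0.11, adjusted p = 5.66e-06). Cnst, consortin, which carries connexins to the plasma membrane, rose from 2555 ± 298 to 4228 ± 535 (0.72 ± 0.12, adjusted p = 0.00142). Tjp1, the scaffold ZO-1 that binds the tails of connexins, rose from 1420 ± 140 to 2215 ± 248 (0.63 ± 0.11, adjusted p = 0.00188). Each of these was separated completely by age.

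Camk2a, a calcium-dependent kinase subunit, rose by 0.56 ± 0.20 (adjusted p = 0.0471), a call lost without the filter (0.0852), with centring, quantile normalization or the block (0.0525 to 0.0770), on averaging its probe sets (0.128), and on leaving out P1 replicates 1, 3 or 4 or P21 replicates 1 or 4 (0.0891 to 0.117). Among the falls, Nbea, neurobeachin, a scaffold needed for electrical synapses in zebrafish, went from 4008 ± 168 to 2181 ± 140 (-0.87 ± 0.09, adjusted p = 5.53e-05). Akap5, which anchors protein kinases A and C at the membrane, went from 1679 ± 597 to 742 ± 177 (-1.12 ± 0.27, adjusted p = 0.00844). Erp29, a chaperone that keeps Cx43 monomeric in the secretory pathway, went from 5223 ± 410 to 3676 ± 364 (-0.51 ± 0.10, adjusted p = 0.00414). Dbn1, drebrin, had a change of -0.22 ± 0.08 (adjusted p = 0.0563) and did not pass. With arrays centred on their medians 6 of these lists' genes were lower, in place of 3.

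**Figure D5:**
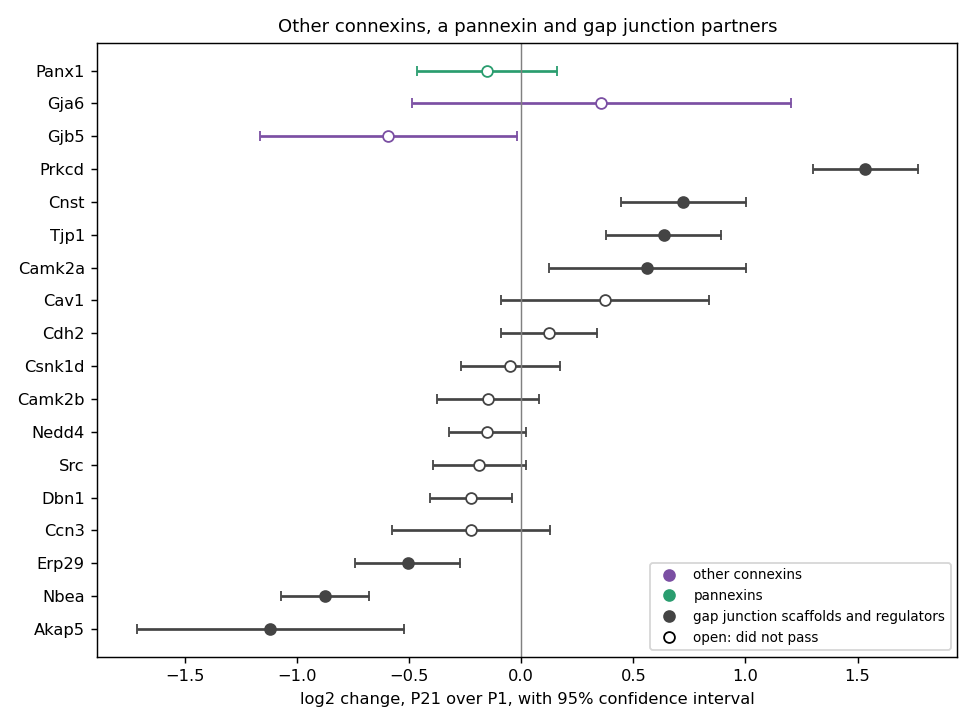
The log2 change, P21 over P1, with its 95% confidence interval, of 2 other connexins (purple), 1 pannexin (green) and 15 scaffolds and regulators (dark grey). Filled points passed the test and open points did not. Prkcd lies farthest right at 1.54 and Akap5 farthest left at -1.12.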

How the data were processed

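The authors deposited 1 table of intensities, on a linear scale, covering 31042 probe sets on 8 Affymetrix RAE230 2.0 arrays. Summarisation, background correction and scaling: not given in the sources used here. Array medians differed (323 to 416), and the brightest probe sets read 10572 to 11540.

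Probe sets were named through the platform annotation. Of these, 20826 had 1 symbol, and 20758 of those matched the GRCr8 gene table by gene ID, with 0 symbols changed. Negative values were raised to 0, 16 was added, and the log2 of the sum was fitted in R 4.3.3 with limma 3.58.1 (lmFit, eBayes) over all 8 arrays. The comparison was P21 against P1, without a covariate. Probe sets over the 40th percentile of their array (221 to 287 intensity units) on at least 4 arrays were tested, 19155 in all. Adjusted p-values are limma's, by Benjamini-Hochberg over all 19155, and an adjusted p under 0.05 is a call. The added 16 makes the log2 change of dim genes too small. List genes were represented by their tested probe set of highest mean. The script was tested on simulated data.

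Members, lists and tests were chosen with earlier results of these data known. All member probe sets are named. Of the gap junction lists every called gene is named, and of each marker list the called gene with the largest change in each direction. For each called member, the 3 genes of highest Pearson correlation over the 8 arrays are also named. Aqp4, Aldoc, Mag, Vwf, Tagln, Kdr, Tie1, Abcc9, Col1a1, Col1a2, Col3a1, Nefh, Prph, Dbn1, Cav1, Csnk1d and Nedd4 are also named, chosen after their values were seen. The same holds for Lum, Dcn, Slc6a13, Ugt8 and Ermn.

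Replicate numbers are shared by the ages. Deviations of same-numbered arrays from their age's mean correlated with r of 0.514 (number 1), 0.321 (number 2), 0.558 (number 3) and 0.150 (number 4). Each was over 0.1, the rule set here for numbers that pair arrays. Those of different-numbered arrays correlated with r of -0.458 to 0.366. P1 replicate 4 correlated more with P21 replicate 3 (0.366) than with P21 replicate 4, so the pairing of number 4 is unclear. The main fit has no block, and with the block 8805 probe sets were called in place of 7329. The design text, which divides 4 litters between the ages, does not say that a number is a litter. Alternatives were other pseudocounts (4 and 64), no filter, a filter at the 60th percentile, centring, quantile normalization, the replicate block, leaving out each array and averaging a gene's probe sets.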

Additional observations from a re-analysis of the deposited data

Results flagged for a closer look

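Of 40 sets of 4 arrays examined for 1 array far from the others (11 connexin probe sets and 9 marker sums at each age), 2 stood out, which is the number chance gives, about 1 in 20. Both were on P21 replicate 2. Gja4 read 1209 there and 875 to 886 on the other P21 arrays. The summed mural cell markers were 5741 there and 4435 to 4590 on the others.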

How the results depend on the processing

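Gjb6, Gjb1, Gja1 and Gjc1 kept their direction and passed under each of 15 alternatives. Gjb2 did not pass without the filter (change 1.09), centred (1.02), quantile normalized (1.03) or with the replicate block (1.09), and its change was 0.90 to 1.51 with single arrays left out. Gjd2 did not pass without the filter (-0.42) and was not tested with the filter at the 60th percentile. It passed centred (-0.49), quantile normalized (-0.54) and with the block (-0.42), and its change was -0.51 to -0.32 with single arrays left out. Connexin probe sets called lower were 1 without the filter, 1 at the 60th percentile and 1 to 2 with single arrays left out. With single arrays left out the change ranged from -0.032 to 0.12 for Gja4 and from -0.25 to 0.0092 for Gja5, reversed without P21 replicate 2. Gap junction list genes called lower were 6 with centring and 5 with the mean of each gene's probe sets, against 3. Besides Gjb2 and Camk2a, the replicate block removed the call of the interneuron marker Slc32a1 (0.47, adjusted p = 0.0890) and made calls of Gjb5 (adjusted p = 0.0486) and Cav1 (0.0474), and it changed no other call of a connexin, of a gap junction partner at its brightest probe set or of a marker named by rule. Over the marker lists it gave 31 higher and 5 lower in place of 33 and 6, with 3 endothelial markers higher and 3 interneuron markers lower in place of 4 each. The cause was not tested. Signal limits Gjd2, Gjb6 at P1 and the 3 untested probe sets, which lay near or under the filter level, and 4 arrays per age limit the precision.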

Other observations

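Probe sets of some gap junction partners disagreed. Cav1, caveolin, which binds connexins in membrane rafts, read 1046 and 1344 on its brighter probe set (change 0.37 ± 0.21, adjusted p = 0.187, or 0.0474 with the replicate number as a block) but 692 and 1830 on another (1.46 ± 0.29, adjusted p = 0.00361). Csnk1d, a kinase of connexin 43, had 5 tested probe sets. The brightest changed by -0.05 ± 0.10 and did not pass, while a dimmer one went from 535 to 1041 (0.93 ± 0.12, adjusted p = 2.04e-04). Nedd4, a ubiquitin ligase of connexin 43, changed by -0.15 ± 0.08 (adjusted p = 0.156) on its brighter probe set and fell on its other one (-0.40 ± 0.12, adjusted p = 0.0230).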
